A study of Mus musculus with 3 samples.

Results

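Il1b-high C1q macrophages are the cells of these tumours that carry much RNA for both complement C1q and interleukin-1 beta. They were picked cell by cell on the deposited counts: a summed C1qa, C1qb and C1qc count of at least 10 and an Il1b count of at least 5. They also had to show at most 3 counts of the interferon genes Cxcl11, Ifit1bl1 and Iigp1 and at most 2 of Pf4, Vcam1 and Ccl8. The limit was 1 count each for the T cell genes Cd3d, Cd3e and Cd3g, the NK cell genes Ncr1 and Klrb1c, and the division genes Mki67, Top2a, Birc5 and Ube2c. The rule was met by 343 of 43730 cells, namely 170 in the 4-month library, 58 in the 12-month library and 115 in the 20-month library. The 19 genes of the rule are therefore described and never used as findings.

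The cells came from subcutaneous tumours of YUMM1.7, a mouse melanoma line, 18 days after 500000 cells had been injected into mice of 4, 12 or 20 months. Live cells bearing the leukocyte protein CD45 were sorted after enzyme digestion and sequenced with PIP-seq, a droplet method that works without a microfluidic chip. All mice were untreated apart from the tumour as far as the labels say, and strain, sex and genotype are not among them. There were 7 mice of each age and 1 library for each age. Whether the mice of an age were pooled is not stated. With 1 library an age no difference between ages could be tested, and intervals cover counting error only.

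C1q is the recognition part of the classical complement pathway and is made in tumours mostly by macrophages. Il1b encodes a cytokine precursor that has no signal of its own until an inflammasome activates caspase-1, which cuts it. Its transcription is switched on by Toll-like receptors and by IL-1 and TNF receptors through NF-kB and AP-1, and the same signals raise their own inhibitors. Il1r2 encodes a receptor that binds IL-1 without passing on a signal, and Il1rn encodes a blocking ligand. Tumour macrophages that arrive recently from blood monocytes are known to carry more Il1b, and those long settled in tissue to carry more scavenger receptors.

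The promoters of 4 genes that the results turn on are shown to give the letters of an NF-kB (kB) site where one was found. The sequences are RefSeq, build GRCm38.p6, 5′ to 3′ in the direction of the gene, and run from 250 to 31 bases before the start of transcription, 220 bases each. Capitals mark matches to the kB consensus on either strand. Il1b lies on chromosome 2 on the minus strand (chr2:129371170-129371389), Cxcl2 on chromosome 5 on the plus strand (chr5:90903649-90903868), Ccrl2 on chromosome 9 on the minus strand (chr9:111057549-111057768, the most upstream of its 3 starts) and Ier3 on chromosome 17 on the plus strand (chr17:35821463-35821682).
Il1b: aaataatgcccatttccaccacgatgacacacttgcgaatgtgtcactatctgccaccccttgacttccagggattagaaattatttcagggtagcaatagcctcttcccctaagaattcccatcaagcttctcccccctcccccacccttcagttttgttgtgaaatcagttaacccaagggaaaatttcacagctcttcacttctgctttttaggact
Cxcl2: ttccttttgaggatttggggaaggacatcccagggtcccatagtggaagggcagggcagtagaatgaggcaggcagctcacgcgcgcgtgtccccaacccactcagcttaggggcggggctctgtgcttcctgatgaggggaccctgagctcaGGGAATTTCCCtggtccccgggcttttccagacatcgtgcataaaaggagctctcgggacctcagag
Ccrl2: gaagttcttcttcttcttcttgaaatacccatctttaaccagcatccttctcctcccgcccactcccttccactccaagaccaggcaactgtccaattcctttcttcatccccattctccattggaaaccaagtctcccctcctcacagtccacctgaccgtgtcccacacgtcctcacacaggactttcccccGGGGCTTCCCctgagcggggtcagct
Ier3: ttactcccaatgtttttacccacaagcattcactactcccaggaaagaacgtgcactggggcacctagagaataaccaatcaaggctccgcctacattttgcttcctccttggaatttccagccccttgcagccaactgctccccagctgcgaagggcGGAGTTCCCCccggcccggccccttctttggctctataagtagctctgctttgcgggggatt

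The Il1b-high cells were compared with 3 other groups of C1q cells cut from the same libraries by counts. Il1b-low cells met every condition except that Il1b was below 5 (405 cells). Cells of the Pf4 class had at least 5 counts of Pf4, Vcam1 and Ccl8 with Il1b below 5 (59 cells, of them 7 at 12 months). Cells of the interferon class had at least 6 counts of Cxcl11, Ifit1bl1 and Iigp1 with Il1b below 5 (186 cells). Counts were summed over the cells of a class in a library, giving 12 sums, and tested with edgeR's quasi-likelihood test with the library as a block. A gene was called at a Benjamini-Hochberg adjusted p below 0.05 and a change of at least 1.5-fold. The 3 libraries, of 3 ages, are the replicates of these comparisons. P-values therefore rest on how much class differences vary between these libraries, estimated over all 12 sums. Levels are given as counts per 1000000 summed counts (CPM). Where groups are said not to overlap, this describes the levels of the 3 libraries. The share of all genes tested without overlap was not counted. Fewer cells of a state and less RNA per cell cannot be told apart in such sums.

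The libraries held 14393, 14653 and 14684 cells with 110371225, 127850782 and 119873564 counts at 4, 12 and 20 months. The median count per Il1b-high cell was 7416, 7017.5 and 6697, and that of Il1b-low cells 6107, 6273.5 and 6327, so the Il1b-high cells were deeper in each library. Barcodes shared between libraries numbered 2 to 4 a pair, and none belonged to an Il1b-high cell. Scrublet placed 5 of the 343 cells, all at 4 months, among the 6% of cells with the highest doublet score.

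The cells carried the RNA of macrophages in every library. T cells (a Cd3 sum of at least 3 and a C1q sum of at most 2) are given for comparison. They should lack C1q RNA of their own but can express some of the other genes. Of the 12 macrophage markers 10 reached 50 CPM in each library, but so did 8, 7 and 8 in T cells at 4, 12 and 20 months. The 12 together came to 13163, 14481 and 14638 CPM at 4, 12 and 20 months, against 1132 to 1354 CPM in T cells. C1qa, C1qb and C1qc are among the 12 and part of the rule, so this gap to T cells was partly set by selection. Of the other members, Aif1, a calcium-binding protein of macrophages, stood at 2061, 2033 and 2043 CPM. Ms4a7, a macrophage membrane protein, stood at 669, 609 and 700.5 CPM. Fcgr1, the high-affinity IgG receptor, stood at 794, 588 and 814 CPM. The members under 50 CPM were Mertk and Mrc1, receptors of settled macrophages, at 9.94, 9.34 and 21.2 CPM and at 4.59, 49.0 and 16.2 CPM.

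Some genes of inflammatory monocytes stood above the T cell level and others did not. Of the 8 monocyte markers 4, 6 and 5 reached 50 CPM at 4, 12 and 20 months, against 6, 6 and 5 in T cells. Ly6c2 stood at 5352, 4351 and 4532 CPM, against 706, 1066 and 1057 CPM in the Pf4 class, and T cells had 4684, 5285 and 4560 CPM. Ccr2, the receptor that brings monocytes out of the marrow, was above the T cells in all 3 libraries at 941, 840 and 1057 CPM against 455, 431 and 373 CPM. Plac8 was above them as well, at 4116, 2999 and 3992 CPM against 2624, 2163 and 2004 CPM. Vcan and F13a1, 2 further monocyte markers, were lower than in T cells in each library, with 4.67 to 11.2 CPM and 13.7 to 21.01 CPM.

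Markers of other cell types were compared with the same T cells. The 8 neutrophil markers together came to 73.5 to 77.2 CPM against 52.4 to 101 CPM in T cells, with S100a8 at 3.82, 18.7 and 12.5 CPM against 14.1, 32.8 and 14.2 CPM. The 8 T cell markers summed to 541, 696 and 668 CPM in Il1b-high cells and 555, 837 and 635 CPM in Il1b-low cells. T cells had 7193, 7012 and 7028 CPM. Cd3d, Cd3e and Cd3g are among the 8, limited by the rule and required in T cells, so this gap was partly set by selection. The 10 dendritic cell markers summed to 84.0 to 93.5 CPM against 234 to 257 CPM in T cells, and the 5 B cell markers to 12.2 to 23.7 CPM against 14.1 to 20.7 CPM. The 7 melanoma markers summed to 32.9, 58.4 and 47.4 CPM, above the 9.86 to 11.8 CPM of T cells, with Mlana, Tyrp1 and Sox10 at 0 in all 3 libraries.

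The 6 markers behind the name of this group were chosen with earlier results of these data known, so their p-values only describe them. Il1b was part of the rule and stood at 2528, 2782 and 2530 CPM against 265, 230 and 213 CPM in Il1b-low cells. In T cells Il1b stood at 259, 315 and 229 CPM, slightly below Il1b-low cells at 4 months and above them at 12 and 20 months. The decoy receptor Il1r2 stood at 245, 119 and 151 CPM against 66.3, 39.5 and 77.6 CPM in Il1b-low cells. The groups did not overlap, and the gap was 2.75-fold (log2 1.46, SD of the library ratios 0.47, n = 3, edgeR adjusted p = 5.15e-08). Ly6i, a GPI-anchored surface protein, parted the groups less. Its levels were 280, 392 and 270 CPM against 198, 207 and 243 CPM, and its log2 fold change of 0.49 (edgeR adjusted p = 2.97e-02) was below 1.5-fold. It was called without the 20-month library (log2 0.66, adjusted p = 3.89e-03).

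The other 3 markers were thinly counted and none passed the test against Il1b-low cells. Gpr84, a receptor for medium-chain fatty acids, stood at 25.2, 25.7 and 29.9 CPM against 14.3, 14.8 and 24.1 CPM. Tnip3, an inhibitor of NF-kB signalling, stood at 23.7, 21.01 and 23.7 CPM against 8.96, 0 and 15.5 CPM. Htra3, a secreted serine protease, stood at 37.5, 30.3 and 34.9 CPM against 37.7, 17.3 and 28.4 CPM. With the Il1b-low group limited to cells with at most 1 Il1b count, Gpr84 (log2 1.46, edgeR adjusted p = 4.57e-02) and Tnip3 (log2 1.91, adjusted p = 4.08e-02) passed. Htra3 was above the T cell level of 4.12 to 5.04 CPM in both C1q groups.

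The share of cells with a count was compared at equal depth. After each cell was thinned to 3500 counts, Il1r2 was seen in 43.5%, 25.9% and 30.4% of Il1b-high cells at 4, 12 and 20 months, in 19.3%, 18.3% and 16.7% of Il1b-low cells and in 8.14% to 8.84% of T cells. Ly6i was seen in 45.9%, 55.2% and 44.3% of Il1b-high cells and 36.3%, 46.7% and 39.7% of Il1b-low cells. Without thinning, Il1r2 was seen in 60.0%, 37.9% and 40.9% of Il1b-high cells and in 11.5% to 14.3% of T cells.

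**Figure D1:**
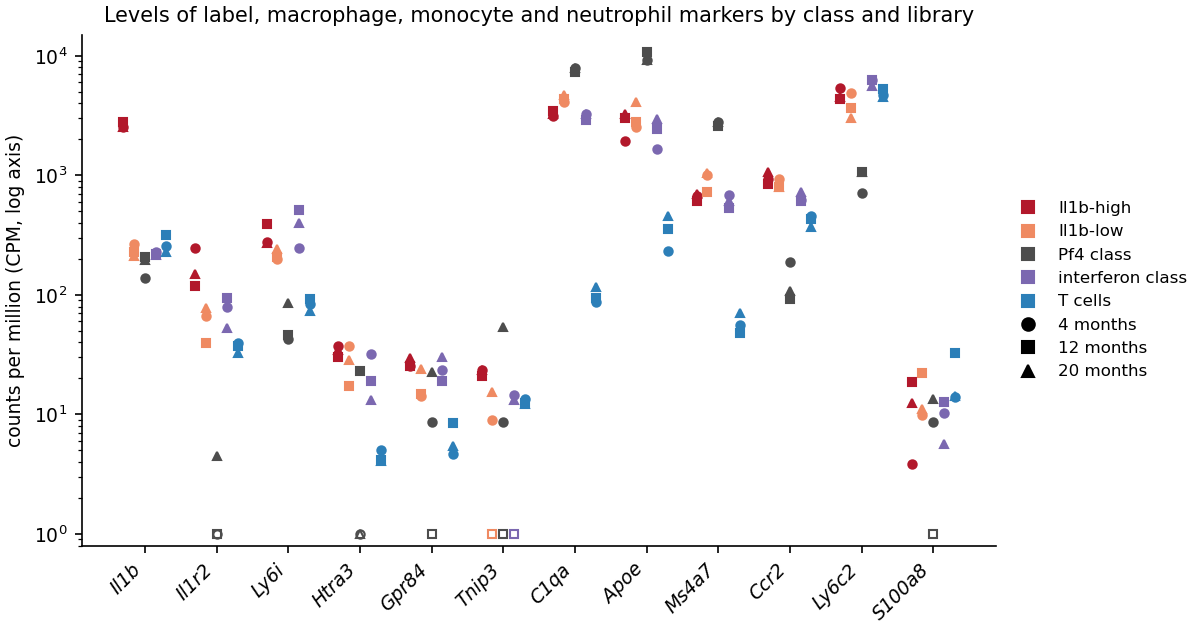
CPM (log axis) of the 6 label markers and 6 markers of macrophages, monocytes and neutrophils in 4 C1q groups and in T cells, 1 point for each library, with hollow points at the foot for no count. Il1r2 is highest in the Il1b-high cells of each library, whereas Ly6i in the interferon class reaches or passes it at 12 and 20 months and Ly6c2 in T cells is as high as in the C1q cells.

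Between Il1b-high and Il1b-low cells, early response genes held the largest share of calls of the 17 lists. Outside the rule and the label markers, 96 genes were higher (1.35% of 7088 tested) and 27 lower (0.381%). Without the 20-month library 60 and 18 were called, and without the 4-month library 67 and 17. Of 23 immediate early and heat shock genes tested, 13 were higher and 0 lower, with a median log2 fold change of 1.18 against -0.01 over all genes tested. Of 19 NF-kB subunits and feedback inhibitors counted, 6 were higher and 0 lower (median 0.38), and of 19 inflammatory surface receptors, 5 and 0 (median 0.18). Both resident-type scavenger genes that passed the test were lower, out of 10 tested (median -0.56).

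Cxcl2, a chemokine that draws neutrophils, was the first of the 15 named higher genes by fold change. It stood at 115, 387 and 118 CPM in Il1b-high cells and 38.5, 49.4 and 9.48 CPM in Il1b-low cells at 4, 12 and 20 months, 5.72-fold apart (log2 2.52, SD 1.03, n = 3, edgeR adjusted p = 2.33e-11). The 12-month library stood above the other two, and there 15 of 58 cells held all the counts, 31.9% of them in a single cell. Osm, the cytokine oncostatin M, stood at 134, 180 and 170 CPM against 62.8, 37.0 and 22.4 CPM (log2 1.93, SD 0.92, adjusted p = 5.00e-08). Ptgs2, the inducible cyclooxygenase that makes prostaglandins, was rarer at 31.3, 49.0 and 41.1 CPM against 4.48, 2.47 and 5.17 CPM (log2 3.05, SD 0.57, adjusted p = 9.59e-07). In none of these 3 genes did the groups overlap, but they were picked for large fold changes, which favours such a gap.

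The remaining inflammatory cytokines did not move as a block. Of 16 counted, 3 were higher (Ptgs2, Cxcl2 and Osm) and 1 was lower, and the list's median was 0.12. The lower one was Ccl5, a chemokine made in quantity by T and NK cells, at 711, 906 and 760 CPM against 970, 1973 and 1198 CPM. T cells had 4172, 4110 and 5381 CPM of Ccl5, and the part of free T cell RNA in this gap was not tested. Tnf stood at 31.3, 51.4 and 27.4 CPM against 37.7, 37.0 and 22.4 CPM (log2 0.09, adjusted p = 9.87e-01), beside 32.6 to 35.1 CPM in T cells. Il6 was at 0 at 12 and 20 months and at 1.53 CPM at 4 months.

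Within the IL-1 system 1 gene was called besides Il1r2. Nlrp3, the sensor of the inflammasome that activates caspase-1, stood at 68.02, 70.03 and 53.6 CPM against 34.1, 29.6 and 18.96 CPM, with no overlap (log2 1.22, SD 0.25, adjusted p = 8.54e-04). The list counted 14 genes with Il1r2 left out as a label marker, and its median was 0.05. The antagonist Il1rn stood at 114, 128 and 117 CPM against 99.5, 98.8 and 67.2 CPM (log2 0.46, adjusted p = 3.57e-01). Il1a, the other agonist of the same receptor, was not tested for low counts and stood at 15.3, 4.67 and 9.97 CPM against 3.59, 9.88 and 0.862 CPM.

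Among receptors, Ccrl2, which holds the chemoattractant chemerin at the cell surface, stood at 209, 170 and 239 CPM against 60.1, 56.8 and 51.7 CPM (log2 1.93, SD 0.32, adjusted p = 3.28e-12). Cd14, which hands bacterial lipopolysaccharide to Toll-like receptor 4, stood at 347, 574 and 480 CPM against 208, 207 and 169 CPM (log2 1.21, SD 0.43, adjusted p = 1.43e-08). Cxcr4, the receptor for Cxcl12, stood at 133, 154 and 153 CPM against 46.6, 56.8 and 45.7 CPM (log2 1.59, SD 0.17, adjusted p = 9.04e-10). The remaining receptors called were Plaur, Tlr2 and Clec4e with log2 changes of 0.83, 0.66 and 0.93. Clec4e lost its call in DESeq2 (adjusted p = 2.12e-01) and in edgeR without the 12-month or 20-month library (adjusted p = 3.58e-01 and 6.28e-01), and Plaur in DESeq2 (adjusted p = 1.29e-01). Gpr84 was left out of this count as a label marker.

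The NF-kB genes that passed were Nfkbia, Tnfaip3, Nfkbid, Nfkbie, Birc3 and Rel, from a list that holds more inhibitors than subunits. Nfkbia, which holds NF-kB in the cytoplasm, stood at 600.0, 749 and 546 CPM against 368, 432 and 341 CPM (log2 0.74, SD 0.06, adjusted p = 8.23e-06). Tnfaip3, the deubiquitinase A20, stood at 84.8, 103 and 64.8 CPM against 34.96, 39.5 and 35.3 CPM (log2 1.17, adjusted p = 2.44e-04). Nfkbid, Nfkbie and Birc3 were higher by log2 1.12, 0.81 and 0.80, and of the subunits Rel by 0.77. T cells carried more of both inhibitors named first, with 683 to 1027 CPM of Nfkbia and 141 to 169 CPM of Tnfaip3. The part of free T cell RNA in these levels was not tested. Nfkbid lost its call without each library in turn (adjusted p from 8.25e-02 to 2.37e-01), Nfkbie without the 4-month or 20-month library (7.26e-01 and 5.05e-02) and Birc3 without the 4-month library (1.02e-01), all in edgeR.

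The immediate early genes, which encode transcription factors and feedback proteins made within minutes of a stimulus, were called in the larger part. Fos stood at 1912, 2754 and 1290 CPM against 898, 1030 and 527 CPM (log2 1.27, SD 0.17, adjusted p = 9.51e-14). Atf3, a stress-induced repressor, stood at 492, 599.9 and 270 CPM against 184, 156 and 86.2 CPM (log2 1.64, SD 0.26, adjusted p = 3.32e-12). Zfp36, which destabilises cytokine mRNAs, stood at 909, 1153 and 777 CPM against 437, 420 and 258 CPM (log2 1.36, SD 0.28, adjusted p = 3.28e-12). Dusp1, a phosphatase that turns off MAP kinases, stood at 779, 1242 and 499 CPM against 354, 388 and 153 CPM (log2 1.48, SD 0.32, adjusted p = 3.28e-12). No library of Il1b-low cells reached the lowest Il1b-high library for Fos, Atf3, Zfp36 or Dusp1. Atf3, Zfp36 and Dusp1 were named for their fold change, so for them this is a description.

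Ier3, an early gene that also limits apoptosis, stood at 93.2, 168 and 191 CPM against 52.0, 29.6 and 51.7 CPM (log2 1.57, SD 0.82, adjusted p = 6.72e-07). Nr4a1, an orphan nuclear receptor, was 3.71-fold higher at 216, 252 and 196 CPM against 62.8, 76.6 and 44.0 CPM (adjusted p = 3.32e-12), yet T cells held 213, 247 and 143 CPM. Of the heat shock genes, Hspa1b stood at 16.8, 49.0 and 24.9 CPM against 33.2, 64.2 and 36.2 CPM (log2 -0.64, adjusted p = 3.63e-01). The early genes Junb, Btg2, Fosb, Egr1, Ier2, Nr4a2 and Klf6 were called as well, by log2 0.59 for Klf6 up to 1.81 for Egr1.

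The other named higher genes serve signalling and stress. Ifrd1, a transcriptional coregulator, was higher by log2 1.86, Pde4b, which breaks down cyclic AMP, by 1.56, and Gadd45b, a stress sensor, by 1.52. Pmaip1, the pro-apoptotic protein Noxa, was higher by 1.51, the AP-1 subunit Fosl2 by 1.35 and Thbs1, the matrix protein thrombospondin-1, by 1.34. Of the 15 named higher genes, 14 kept direction and call in all 15 alternatives run, and Thbs1 lost its call in DESeq2 (adjusted p = 7.85e-02). At 12 months 60.6% of the Thbs1 counts of Il1b-high cells came from 1 cell.

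Lower genes were fewer and less steady. Klra17, a lectin-like receptor of the Ly49 family, stood at 18.3, 16.3 and 13.7 CPM in Il1b-high and 69.9, 76.6 and 75.9 CPM in Il1b-low cells (log2 -2.12, SD 0.25, adjusted p = 9.05e-08). Nrp1, a coreceptor for semaphorins and VEGF, stood at 23.7, 18.7 and 16.2 CPM against 52.0, 54.3 and 59.5 CPM (log2 -1.44, SD 0.35, adjusted p = 7.78e-05). Cd81, a tetraspanin of settled macrophages, stood at 64.2, 133 and 83.5 CPM against 168, 165 and 230 CPM (log2 -1.15, SD 0.64, adjusted p = 2.00e-06). These 3 of the 10 named lower genes kept their calls in all 15 alternatives, and in none of them did the groups overlap. Being named for fold change and shared direction favours such a gap. Klra17 belongs to a family of near-identical genes, so its reads may be shared with relatives.

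The 7 that lost a call somewhere were Fcrl5, Cadm1, Gk, Cd300e, Hpgds, Cd63 and Shtn1. Fcrl5, an Fc receptor-like protein best known on B cells, stood at 6.11, 7.00 and 4.99 CPM against 16.1, 123 and 32.8 CPM (log2 -2.64, adjusted p = 6.01e-05). At 12 months 92.0% of its counts in Il1b-low cells were in 1 cell, and it lost its call in DESeq2 (adjusted p = 3.92e-01) and without the 12-month library (adjusted p = 8.81e-02). Hpgds, the prostaglandin D2 synthase, stood at 40.5, 67.7 and 54.8 CPM against 87.9, 101 and 104 CPM (log2 -0.92, adjusted p = 1.06e-03). Cd63, a lysosomal tetraspanin, was lower by log2 -0.85 (adjusted p = 1.88e-04). Without the 4-month library Cadm1 (adjusted p = 9.37e-02) and Hpgds (1.42e-01) were not called, and without the 20-month library Gk (2.82e-01), Cd300e (9.99e-01) and Cd63 (1.40e-01) were not, all in edgeR. Cd300e was not called without the 12-month library either (1.05e-01), and Shtn1 without any of the 3 (7.26e-02 to 3.68e-01).

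**Figure D2:**
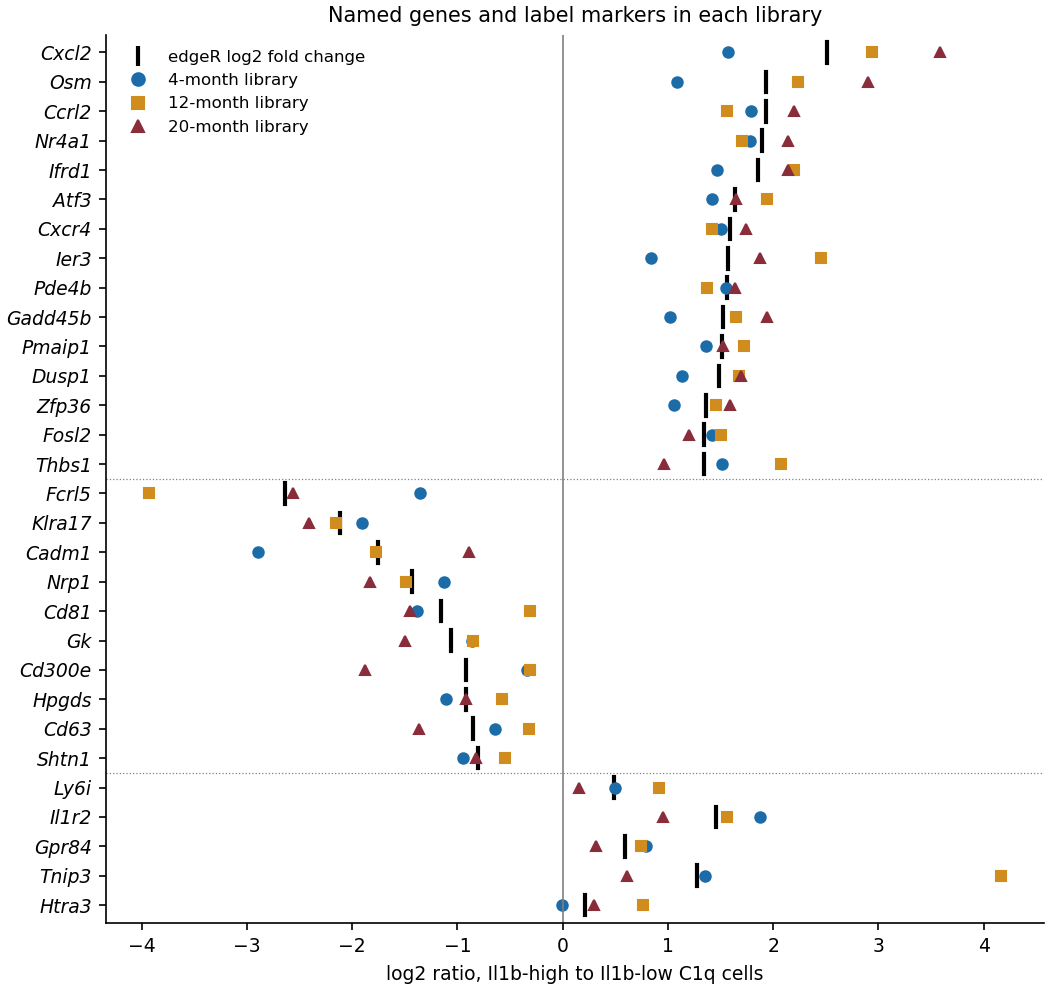
Log2 ratio of Il1b-high to Il1b-low C1q cells (x axis) for the named higher genes, the named lower genes and 5 label markers (y axis), 1 point for each library and a bar for the edgeR log2 fold change. The 15 higher genes lie right of 0 in all 3 libraries, Fcrl5 and Cadm1 are spread widely, and among the label markers Htra3 lies close to 0 and Il1r2 to the right in every library.

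Costimulation and regulation differed in a few members. Of 13 MHC class II presentation genes 2 were higher, both of them costimulatory ligands for CD28 on T cells. Cd86 stood at 332, 383 and 307 CPM against 211, 161 and 163 CPM (log2 0.89, SD 0.30, adjusted p = 1.40e-06) and Cd80 at 52.7, 32.7 and 44.9 CPM against 27.8, 12.3 and 16.4 CPM (log2 1.17, adjusted p = 6.67e-03). Cd80 lost its call without the 4-month or the 20-month library (adjusted p = 8.81e-02 and 2.40e-01). Of 18 myeloid transcription factors 4 were higher (Klf4, Fosl2, Cebpb and Klf6) and 1 lower, and Cebpb was not called without the 12-month or 20-month library (adjusted p = 5.85e-02 and 8.19e-01). The lower one, Maf, which holds settled macrophages in their state, stood at 99.4, 121 and 156 CPM against 205, 163 and 222 CPM (log2 -0.70, adjusted p = 1.20e-03) and was not called without the 4-month library (adjusted p = 3.34e-01).

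Several lists held few or no calls. None of the 21 interferon response genes (median -0.15), 18 hypoxia and glycolysis genes (0.22), 7 TREM receptors and adaptors (0.02) or 6 arginine, itaconate and tryptophan enzymes (0.25) was called by edgeR. Of 15 lipid-associated genes 2 were lower, Cd63 and Lpl, and the Lpl call (log2 -1.99, adjusted p = 3.32e-02) was lost in DESeq2 (adjusted p = 9.99e-01) and without the 12-month library (1.05e-01). Of 14 monocyte genes, 1 was higher, which was Nr4a1. Of 8 Ly6 and Ifitm genes Ifitm1 was higher by log2 0.92, with 64.97, 35.01 and 209 CPM against 40.3, 27.2 and 92.2 CPM, and was not called without the 20-month library (adjusted p = 7.14e-01).

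Against the Pf4 class, the Il1b-high cells held more of the monocyte genes and less of the resident-type genes. The Pf4 class was picked for Pf4, Vcam1 and Ccl8, which the rule limits in Il1b-high cells, so the choice may partly set this direction. Of 7093 genes, 293 were higher (4.13%) and 231 lower (3.26%), and 155 and 152 without the 20-month library and 173 and 128 without the 4-month library. Of 14 monocyte genes 8 were higher and 0 lower (median log2 2.002), of 13 MHC class II genes 9 and 0 (median 0.92), and of 9 Ly6 and Ifitm genes 7 and 0 (median 2.07). Label markers outside the rule were counted in this comparison, with Ly6i among the Ly6 and Ifitm genes. Of 10 resident-type scavenger genes 1 was higher and 6 were lower (median -2.29), and of 15 lipid-associated genes 1 and 7 (median -1.17). The summed monocyte markers were 10676, 8426 and 9936 CPM in Il1b-high cells and 1747, 1692 and 1794 CPM in the Pf4 class. T cells had 8054, 8122 and 7160 CPM, and Il1b-low cells 9671, 6985 and 6996 CPM.

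Named genes showed the size of these gaps. Cd63 was lower than in the Pf4 class by log2 -2.95 (adjusted p = 2.11e-18) with 130, 128 and 107 CPM against 929, 997 and 998 CPM, and Cd81 by -3.13 (adjusted p = 3.78e-18). Cadm1, an adhesion molecule, was lower by -3.70 (adjusted p = 2.07e-12) with 9.17, 9.34 and 38.6 CPM against 232, 278 and 276 CPM. Ly6i was higher by 2.19 (adjusted p = 1.13e-07) with 280, 392 and 270 CPM against 43.0, 46.4 and 85.8 CPM. It is a label marker, chosen with earlier results of these data known, so this p-value only describes it. Il1r2 was at 0 in the Pf4 class at 4 and 12 months and at 4.52 CPM at 20 months, against 245, 119 and 151 CPM. The early genes were higher here too, 15 of 23 with 0 lower.

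Against the interferon class the main gap was the interferon response itself. Of 7093 genes, 139 were higher (1.96%) and 367 lower (5.17%), and 91 and 292 without the 4-month library and 95 and 231 without the 20-month library. All 21 interferon response genes were lower by edgeR, with a median log2 of -1.38. The interferon class was picked for high counts of 3 genes of the same response, so this direction was to a degree set by the choice. Early genes were higher, 12 of 23 with 2 lower (median 0.96), and surface receptors 7 of 20 with 0 lower (median 0.31). Osm was higher by log2 2.60 (adjusted p = 1.04e-08) and Il1r2 by 1.33 (adjusted p = 2.76e-06), whereas Ly6i was not called (log2 -0.29, adjusted p = 2.48e-01). Label markers outside the rule were counted here too, and their p-values only describe them. None of 10 resident-type genes was called by edgeR (median 0.22), and of the 14 monocyte genes 1 was higher and 1 lower.

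**Figure D3:**
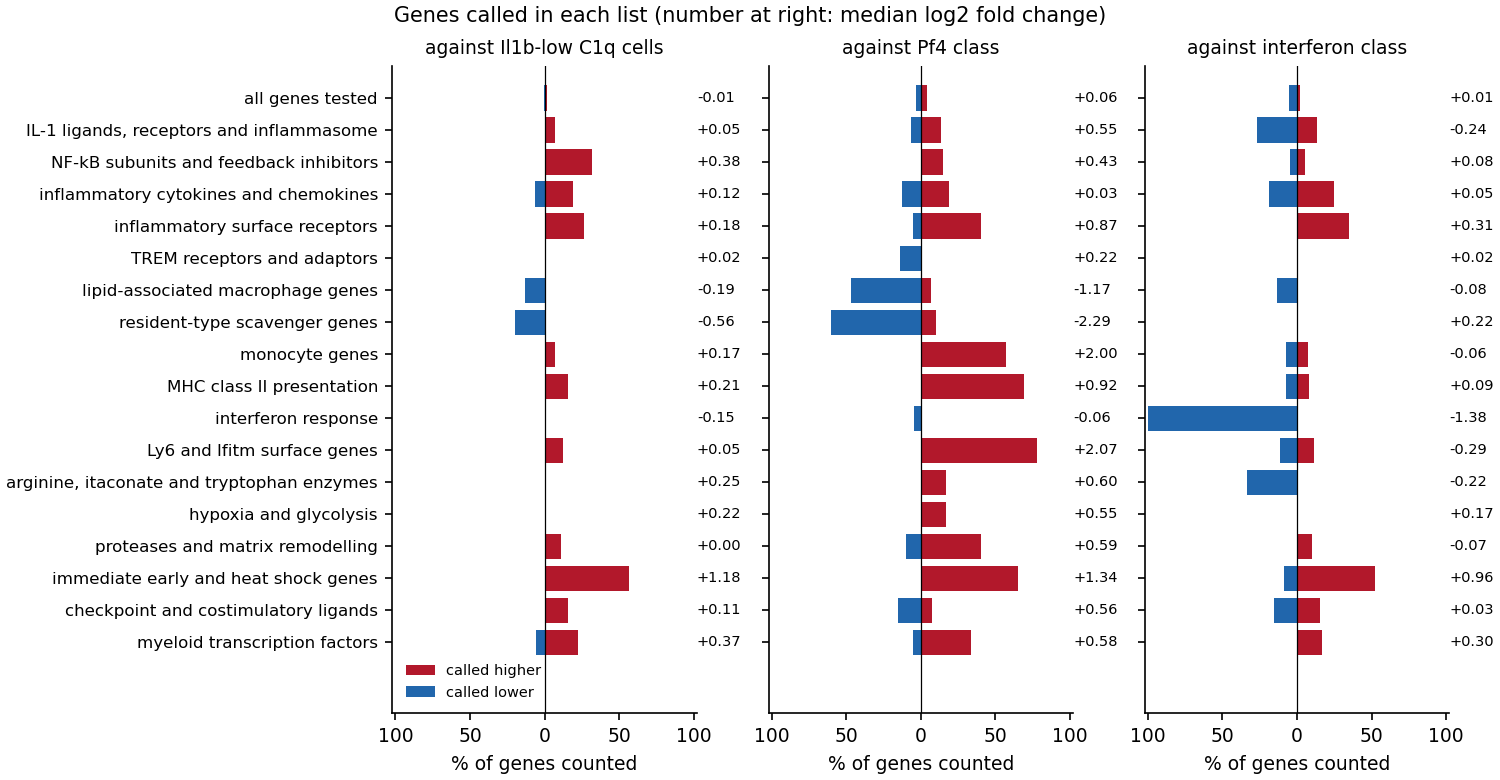
Share of the counted genes of each list called higher (right, red) or lower (left, blue) in Il1b-high cells against each of 3 C1q groups by edgeR, with the median log2 fold change of the list at the right of each row. Early genes stand out against every group (13, 15 and 12 of 23 higher), monocyte and MHC class II genes against the Pf4 class, and the interferon response against the interferon class.

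The Il1b-high cells were also divided by their own Il1b count. In cells with 5 to 9, 10 to 19 and 20 or more Il1b counts (117, 106 and 120 cells), Il1r2 stood at 96.6, 157 and 307 CPM over all libraries. Cd14 stood at 273, 319 and 643 CPM, Nlrp3 at 37.4, 63.1 and 87.0 CPM and Nfkbia at 485, 557 and 753 CPM. Ly6i (327, 267 and 291 CPM), Apoe (2591, 2514 and 2493 CPM) and Trem2 (59.2, 53.7 and 51.8 CPM) had no such order. The rule used Il1b, so these values are a description.

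The order held in each library for Il1r2 and Nlrp3. Il1r2 went from 145 to 357 CPM at 4 months, from 60.9 to 168 CPM at 12 months and from 52.0 to 321 CPM at 20 months between the lowest and the highest Il1b range. Cxcl2 had no steady order, with 313, 130 and 547 CPM at 12 months. The cells in the highest range were also deeper, with a median of 8486 counts against 6800 at 4 months, 7414.5 against 6247 at 12 months and 6891 against 6040 at 20 months.

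Cells on both sides of the threshold were set side by side. Cells just outside, with 3 or 4 Il1b counts (111 cells), had 64.2 CPM of Il1r2, 206 CPM of Cd14 and 12.3 CPM of Cxcl2. Cells just inside, with 5 or 6 counts (69 cells), had 73.7, 157 and 27.9 CPM. The class is thus a range cut at a set point, and 69 of its 343 cells lay at 5 or 6 counts.

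C1q divided the cells along another line. Cells with a C1q sum of 10 to 29 (111 cells) had 5815 CPM of Plac8 and 433 CPM of Ms4a7, and cells with 30 or more (232 cells) had 3129 and 762 CPM. H2-Aa, a chain of MHC class II, went from 5871 to 8698 CPM, and the order of all 3 genes was the same in each library. Cd14 was 502 CPM at low and 398 CPM at high C1q and did not keep this order at 20 months (475 and 482 CPM). Cells at low C1q thus held more Plac8 and less Ms4a7 and H2-Aa, and C1q was part of the rule.

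**Figure D4:**
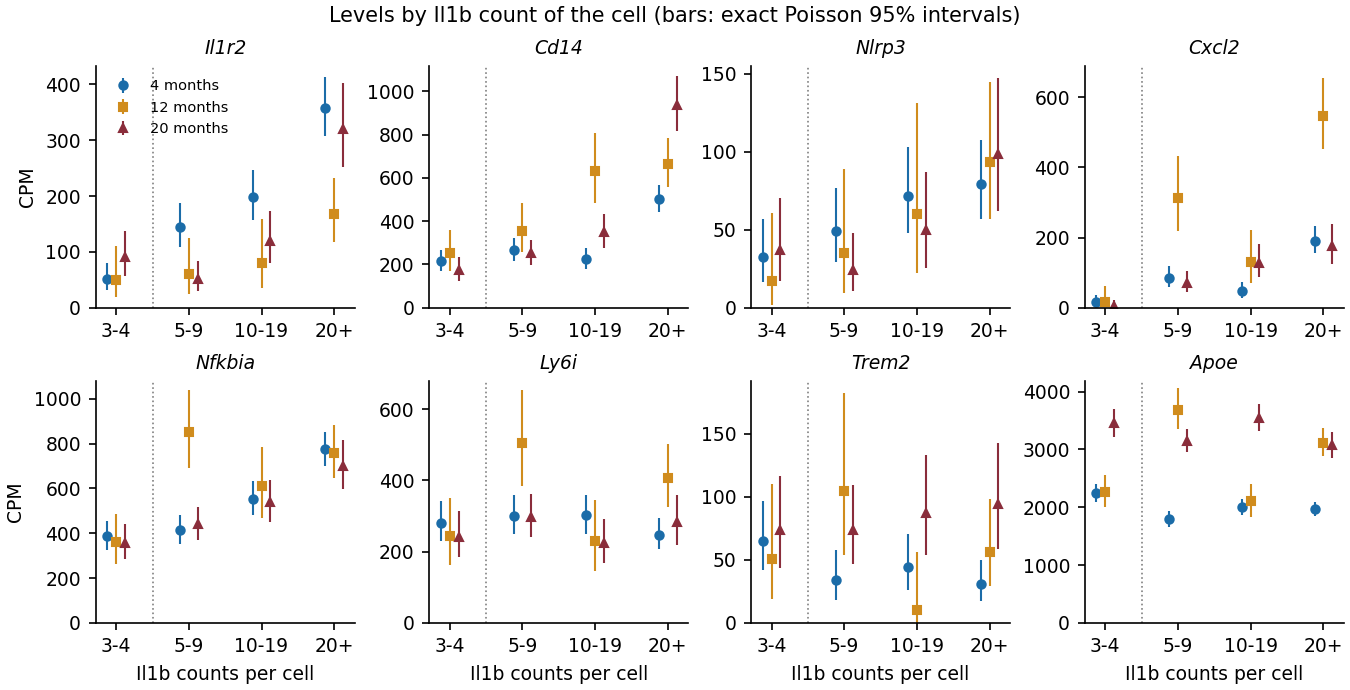
CPM (y axis) of 8 genes in C1q cells grouped by their Il1b count (x axis), 1 point for each library with its exact Poisson 95% interval, the dotted line marking the rule's threshold of 5. From 5 counts on, Il1r2 and Nlrp3 stand higher with each Il1b range in every library, while Trem2 and Apoe have no common order.

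Of all cells in the 4-month library 1.18% met the rule, with an exact binomial 95% interval of 1.01% to 1.37%. The share was 0.396% in the 12-month library (0.301% to 0.511%) and 0.783% in the 20-month library (0.647% to 0.939%). Relative to the youngest library the 12-month share stood at a difference of -0.79 points, with bounds of -0.998 and -0.58, and the 20-month share at -0.40 points, with bounds of -0.63 and -0.17. The order of the ages depended on the Cd3 limit of the rule. Of the cells that met all conditions but the Cd3 limit, 41.0% of 415 at 4 months, 12.7% of 457 at 12 months and 18.5% of 622 at 20 months also met that one. Without the Cd3 limit the shares were 2.88%, 3.12% and 4.24%, in another order, and with a Cd3 sum of up to 5 they were 2.81%, 2.23% and 3.55%. After thinning each cell to 3500 counts they were 2.29%, 1.83% and 2.17%.

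Cd3 counts were present in most strong C1q cells. Among cells with a C1q sum of at least 50, the median Cd3 sum was 2, 5 and 4 at 4, 12 and 20 months, and 30.4%, 7.75% and 15.7% had at most 1. Free T cell RNA and doublets with T cells cannot be told apart in these counts. The part of either in the shares was not tested. Of the cells that met every other condition of the rule (341, 118 and 289 cells), 49.9%, 49.2% and 39.8% also had at least 5 Il1b counts, with intervals of 44.4% to 55.3%, 39.8% to 58.5% and 34.1% to 45.7%.

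**Figure D5:**
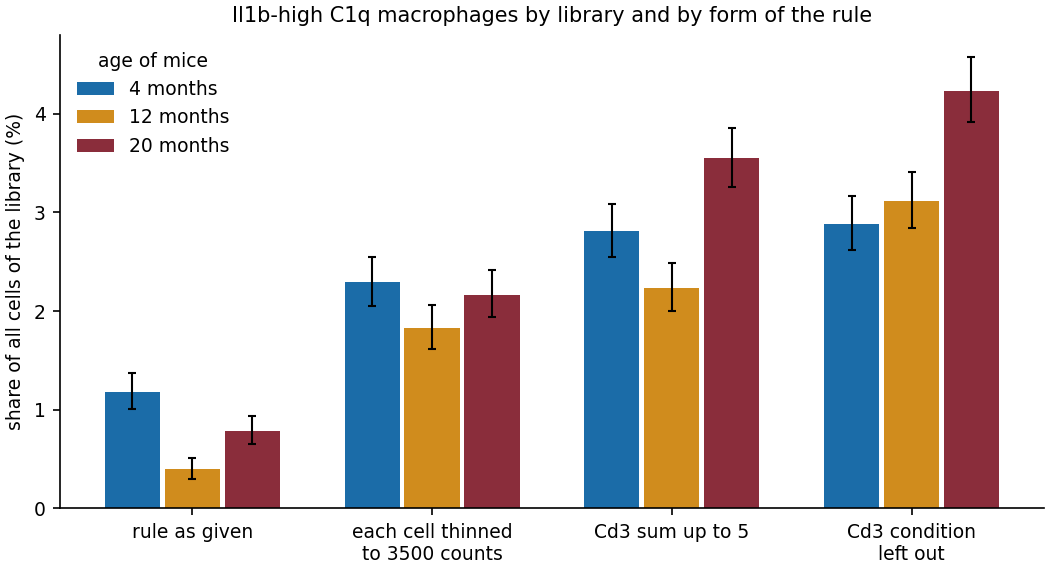
Il1b-high C1q macrophages as a percentage of all cells of each library under 4 forms of the rule, with exact binomial 95% intervals. Under the rule as given the 4-month library is highest at 1.18%, and without the Cd3 limit the 20-month library is highest at 4.24%.

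Levels inside these cells were set side by side across ages. Of 3636 genes at 50 CPM or more in at least 1 library, 172 were at least 1.5-fold higher at 12 than at 4 months (4.73%) and 181 lower (4.98%). At 20 months 95 were higher (2.61%) and 114 lower (3.14%). No p-value can be given with 1 library for each age, and ratios against 4 months share that library. Levels are given beside those of T cells, and the part of the counts in the richest cell was taken for each gene.

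The largest differences came from single cells. Of the 8 genes with the largest ratio of 20 to 4 months by the stated rule, Gm48606, Gm42552 and Itih4 had all their 20-month counts (55, 43 and 41) in 1 cell. The richest cell held 84.6% to 95.2% of those of D430042O09Rik, Gm36287, Nacc2, Gm41335 and Phka2. Of the 8 with the largest ratio of 4 to 20 months, Spdya, CK137956, Gm26512, Ipo11 and Fbxw8 had 71.6% to 100% of the 4-month counts in 1 cell. Levels of those genes are levels of a cell, not of the group.

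With the richest cell of each gene left out of each library, a step added after the data were seen, other genes led. That step only chose the genes. The levels, counts, ratios and intervals given for them here and below are of all cells, the richest included. Trem2, a lipid-sensing receptor of macrophages, went from 35.9 to 58.4 and 83.5 CPM (log2 1.22 at 20 against 4 months, interval 0.66 to 1.79) on 47, 25 and 67 counts. Apoe, the lipid carrier that TREM2 binds, went from 1927 to 3037 and 3247 CPM (log2 0.75, interval 0.67 to 0.83). In T cells both were lower but went the same way, with 6.98, 9.80 and 13.1 CPM of Trem2 and 231, 353 and 462 CPM of Apoe. Il1b-low cells had 56.5, 64.2 and 106 CPM of Trem2, so the order was shared by the neighbouring group. Selenop, which carries selenium, went from 182 to 310 and 313 CPM and Tmem176a, a membrane protein, from 73.4 to 110 and 132 CPM. In Il1b-low cells Selenop stood at 243, 235 and 416 CPM, Tmem176a at 61.0, 119 and 124 CPM and Apoe at 2522, 2793 and 4113 CPM. These were thus also higher at 20 than at 4 months in that group. Ier3, Glg1, Map3k5 and Vps35, described next, were not higher there at 20 than at 4 months.

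Ier3 went from 93.2 to 168 and 191 CPM, with 29.3 to 43.9 CPM in T cells. Its 12-month ratio turned to log2 -0.16 when cells were picked after thinning and their full counts were summed. Glg1, Map3k5 and Vps35 completed the 8, from 22.9 to 30.6 CPM at 4 months up to 52.3 to 56.1 CPM at 20 months, on 45 counts or fewer a library. At 4 months T cells held 25.9, 24.2 and 24.8 CPM of these 3 genes against 22.9, 25.2 and 30.6 CPM, so they stood close to the T cell level there. Glg1 turned round when the Cd3 limit was dropped (log2 -0.55 at 20 against 4 months). Trem1, which amplifies inflammatory signals, went from 32.9 to 9.34 and 18.7 CPM on 43, 4 and 15 counts, with T cells at 7.92 to 9.83 CPM.

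Cdkn1a, the cell cycle inhibitor p21, led the genes that were lower at 20 months by count. It stood at 783, 642 and 376 CPM on 1025, 275 and 302 counts, a log2 of -1.06 at 20 against 4 months (interval -1.25 to -0.87). The Il1b-low cells went from 368 to 291 and 161 CPM and T cells from 168 to 138 and 89.6 CPM, so the order was not limited to Il1b-high cells. Ccdc86 went from 151 to 119 and 72.3 CPM. Pla2g4a, the phospholipase that frees arachidonic acid, went from 88.7 to 63.0 and 51.1 CPM, and Acvrl1, a receptor of the TGF-beta family, from 65.7 to 44.3 and 36.1 CPM. The remaining 4 were A530064D06Rik, Phf23, Nr2c2ap and Cep83, with 51.2 to 75.7 CPM at 4 months and 18.7 to 38.6 CPM at 20 months.

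The genes called against Il1b-low cells differed in their order with age. Fos stood highest at 12 months and lowest at 20 months (1912, 2754 and 1290 CPM), an order also seen in Il1b-low cells (898, 1030 and 527 CPM) and T cells (472, 487 and 299 CPM). Of 20 early genes at the minimum level, 8 were at least 1.5-fold higher at 12 than at 4 months and 0 lower, beside 4.73% and 4.98% of all genes at that level. At 20 months 2 were higher and 3 lower, beside 2.61% and 3.14%. Il1r2 was lower at both later ages at 245, 119 and 151 CPM, by log2 -1.04 (interval -1.50 to -0.61) and -0.70 (interval -1.02 to -0.40). Nlrp3, Il1rn and Tnip3 had intervals that included 0 at both ages.

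Promoters of the genes higher in Il1b-high than in Il1b-low cells were searched for 4 motifs. RefSeq windows from 250 bases before to 50 after the start were found for 78 of the 96 genes. Of their 109 windows 22.9% held the kB motif, against 10.3% of 6730 windows of the genes tested and 8.46% of all 32851 windows. The AP-1 motif (TGANTCA) was in 4.59%, 5.51% and 7.81% of the same sets, the C/EBP motif (TTGCNNAA) in 6.42%, 8.92% and 10.8%, and the interferon motif known as ISRE in 2.75%, 4.28% and 3.44%. Both strands were searched, 0 of the 25 kB windows had a kB match overlapping another of these motifs, and the shares are a description with no test.

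Among the named higher genes, matches in the stretch from 250 to 31 bases before the start were found for Cxcl2, Ccrl2 (1 of 3 windows), Ier3, Pde4b (2 of 4 windows) and Fosl2. Osm, Thbs1, Pmaip1 and the label marker Ly6i are not covered here. In Cxcl2 a pair of matches, beginning 97 and 96 bases before the start, overlap in the run printed in capitals above. The match begins 56 bases before the start in Ccrl2 and 92 in Ier3. The label marker Tnip3 had 1 match, 54 bases before the start, and Il1b, Il1r2, Gpr84 and Htra3 had none in this stretch. No match says only that these letters are absent from the stretch searched.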

How the data were processed

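Counts per gene and cell were taken as deposited by the authors, 1 matrix for each library. The submitters' processing notes name STAR 2.7.10a and GRCm38 without a role, and whether counts are molecules or reads is not given in the sources used here. No further filter on cells was applied beyond the rule, and 0 columns were left unused. Cells were grouped by raw counts. Sums over a class and library were fitted with edgeR 4.0.16 (R 4.3.3), TMM scaling and edgeR's filter on low counts. The library was a block, since the classes compared come from the same 3 libraries. DESeq2 1.42.0 was an alternative. In tests on simulated data for Il1b-high against Il1b-low cells (7068 genes), 22 of 50 genes changed 1.5-fold were called, 48 of 50 at 2-fold and 50 of 50 at 3-fold and 4-fold, with 4 false calls. The changed genes were drawn from those with a mean of at least 50 CPM, and all genes were given the same spread. These numbers do not cover rarer genes or genes whose counts lie in single cells. Intervals are exact (Poisson, Clopper-Pearson or conditional, SciPy 1.17.1). Doublets were scored with Scrublet in scanpy 1.11.5 and kept.

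Age ratios are of summed CPM, for genes at 50 CPM or more in 1 library. Named genes were the 15 with the largest positive and 10 with the most negative fold change among genes called against Il1b-low cells, with a mean of at least 50 CPM in the higher class and the same direction in all 3 libraries, outside the rule and with Gm, Rik, mitochondrial and ribosomal symbols left out. The label markers and examples of each list were added. For age they were the 8 largest ratios each way with the 12-month level in between and a T cell level under 0.5 of theirs in the library where they were highest. The members and lists were chosen with earlier results of these data known.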

Additional observations from a re-analysis of the deposited data

Results flagged for a closer look

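Map3k5, a kinase of stress signalling, had log2 ratios of 20 to 4 months of opposite sign in neighbouring C1q groups, 1.12 in Il1b-high cells and -0.64 in Il1b-low cells. The gene was named for its larger 20-month level in Il1b-high cells, so the contrast is a description, and the difference between the groups was not tested. Its levels in Il1b-high cells were 25.2, 37.3 and 54.8 CPM at 4, 12 and 20 months, on 33, 16 and 44 counts, and T cells held 24.2, 22.3 and 21.05 CPM. At 4 months its level was thus close to that of T cells.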

How the results depend on the processing

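No paired analysis was possible because each age has 1 library. Between classes the library was a block, and with no replicate block 61 genes were higher and 12 lower than in Il1b-low cells. The share of all cells, 12 minus 4 months, was -1.05 points with Il1b at 3 or more, -0.53 with 10 or more, -0.56 with C1q at 20 or more, -0.46 after thinning, -1.55 without the interferon and Pf4 limits and -0.58 with Cd3 up to 5, and reversed to 0.24 without the Cd3 limit. For 20 minus 4 months it was -0.13 after thinning and -0.70 without the interferon and Pf4 limits, and reversed to 0.74 with Cd3 up to 5 and 1.35 without the limit. The share of C1q cells within the Cd3, NK and division limits, 12 minus 4 months, was 2.48 points and reversed to -5.14 without the interferon and Pf4 limits. Genes higher than in Il1b-low cells numbered 198 without the Cd3 limit, 161 without a filter on low counts and 60 to 82 leaving out each library. Lower genes numbered 53 without the Cd3 limit, 16 at 5000 to 15000 counts per cell, 16 with DESeq2, 53 against cells with at most 1 Il1b count, 93 without a filter and 17 to 29 leaving out each library. Against the Pf4 class the counts were 699 and 598 without the Cd3 limit and 155 to 215 and 128 to 202 leaving out each library, and Cxcl9 (0.61) and Tnip3 (1.37) reversed without the Cd3 limit. Against the interferon class 275 were higher without the Cd3 limit, 86 with DESeq2 and 91 to 109 leaving out each library, with 231 to 336 lower. Genes past 1.5-fold at 12 months numbered 63 higher and 48 lower with a prior of 50 CPM. They were 674 and 774 at a minimum of 10 CPM and 549 and 532 with the T cell level subtracted. With cells picked after thinning they were 63 and 30, and without the Cd3 limit 49 and 26. At 20 months they were 40 and 31, 420 and 469, 511 and 378, 52 and 27, and 40 and 24 in the same order, and 156 higher with C1q at 30 or more. At 12 against 4 months CK137956 (0.047), Fbxw8 (0.18) and Ier3 (-0.16) reversed with cells picked after thinning. The full, unthinned counts of those cells were summed, over 330, 268 and 318 cells at 4, 12 and 20 months. At the same ages Fbxw8 (0.43) reversed without its richest cell and Glg1 (-0.65) without the Cd3 limit. Il1b (-0.037) and Ipo11 (0.21) did so with C1q at 30 or more. At 20 months Fbxw8 (0.028) and Gm41335 (-0.061) reversed without the richest cell, Glg1 (-0.55) without the Cd3 limit and Gm36287 (-0.10) with C1q at 30 or more. The Cd3 settings, C1q at 30 or more and the richest cell left out were chosen after seeing the data, and the causes were not tested. Depth limits genes under about 50 CPM at 12 months, where 58 cells held 428418 counts.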
